A study of Mus musculus with 8 samples.

Results

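The 26 genes described here encode enzymes of cholesterol synthesis and the proteins that control them through the transcription factor SREBP2. They are taken from a list of gene names, and all 26 were found by symbol among the 49315 genes of the count files and passed the filter on low counts, which kept 19239 genes. There are 18 enzymes, of which 7 act in the mevalonate steps and 11 from squalene onward, 6 genes of SREBP2 and its regulators, and 2 genes of sterol transfer and lipoprotein receptor turnover. Bulk RNA was sequenced from epidermis that had been isolated from the back skin of mice 22 months old, with 3 wild-type libraries (WT) and 5 from mice labelled Tgfa KO. Tgfa encodes TGF-alpha, a ligand of the EGF receptor. The labels describe the cells as keratinocytes, and give no other allele, treatment or promoter for either group. No source used here states the strain or how the Tgfa allele was made.

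Cells make cholesterol from acetyl-CoA by way of mevalonate, farnesyl diphosphate, squalene and lanosterol. SREBP2 is made as a membrane protein of the endoplasmic reticulum and is bound there by Scap. When sterols are plentiful the Insig proteins hold Scap in place, and when sterols run low Scap carries SREBP2 to the Golgi, where the site-1 and site-2 proteases (Mbtps1 and Mbtps2) release the part that enters the nucleus and activates genes of synthesis and uptake, Insig1 among them. In the epidermis, cholesterol made in keratinocytes is one of the barrier lipids of the cornified layer, with ceramides and free fatty acids.

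SREBPs act on promoters together with the factors NF-Y and Sp1, so the promoters of members whose values are described below are shown first. They are the RefSeq sequences of the 250 bases before the annotated start, on GRCm38.p6, written 5′ to 3′ along the gene. The gene models of the count files begin upstream of the RefSeq start for Idi1, Insig1, Cyp51 and Msmo1, so the ends of those windows lie in their first exon, and downstream of the window for Hmgcs1 and Mbtps1. Capitals mark the letters TCACNCCA of a sterol regulatory element and the letters CCAAT that NF-Y binds, on either strand, so that CCAAT on the opposite strand reads as ATTGG. Hmgcs1 and Msmo1 are shown as the enzymes that hold both motifs. Srebf2 also holds both and is not shown. Idi1 and Insig1 are shown for their wide spread among KO libraries, and Cyp51 as an enzyme whose libraries were arranged like those of Msmo1. Mbtps1 is shown as a regulator whose values differed from the enzymes and whose window has neither motif.
Hmgcs1 (chr13:119690101-119690350, + strand): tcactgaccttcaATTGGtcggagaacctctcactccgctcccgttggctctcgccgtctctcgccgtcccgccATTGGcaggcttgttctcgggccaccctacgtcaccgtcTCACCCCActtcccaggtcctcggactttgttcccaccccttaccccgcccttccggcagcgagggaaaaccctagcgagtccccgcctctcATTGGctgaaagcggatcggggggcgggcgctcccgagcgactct
Msmo1 (chr8:64733579-64733828, - strand): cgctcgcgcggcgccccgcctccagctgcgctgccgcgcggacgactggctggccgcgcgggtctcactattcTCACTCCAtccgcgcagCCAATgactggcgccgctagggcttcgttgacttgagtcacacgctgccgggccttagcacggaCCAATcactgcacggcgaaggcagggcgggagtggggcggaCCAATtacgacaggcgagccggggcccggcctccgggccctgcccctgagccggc
Idi1 (chr13:8885356-8885605, + strand): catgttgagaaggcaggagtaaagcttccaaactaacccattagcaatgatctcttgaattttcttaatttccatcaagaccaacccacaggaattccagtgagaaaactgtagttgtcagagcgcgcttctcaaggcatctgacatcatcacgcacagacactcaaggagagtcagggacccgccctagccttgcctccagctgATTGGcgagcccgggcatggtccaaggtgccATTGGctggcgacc
Insig1 (chr5:28071162-28071411, + strand): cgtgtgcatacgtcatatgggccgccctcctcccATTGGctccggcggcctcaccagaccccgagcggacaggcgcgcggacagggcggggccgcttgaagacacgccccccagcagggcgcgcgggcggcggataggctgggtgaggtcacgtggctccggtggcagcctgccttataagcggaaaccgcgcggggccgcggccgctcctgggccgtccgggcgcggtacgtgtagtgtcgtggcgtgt
Cyp51 (chr5:4104698-4104947, - strand): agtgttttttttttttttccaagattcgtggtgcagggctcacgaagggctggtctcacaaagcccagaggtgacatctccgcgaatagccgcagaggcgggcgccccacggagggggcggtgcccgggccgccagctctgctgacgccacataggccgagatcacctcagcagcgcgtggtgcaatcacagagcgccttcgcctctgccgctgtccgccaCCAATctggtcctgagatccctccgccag
Mbtps1 (chr8:119558762-119559011, - strand): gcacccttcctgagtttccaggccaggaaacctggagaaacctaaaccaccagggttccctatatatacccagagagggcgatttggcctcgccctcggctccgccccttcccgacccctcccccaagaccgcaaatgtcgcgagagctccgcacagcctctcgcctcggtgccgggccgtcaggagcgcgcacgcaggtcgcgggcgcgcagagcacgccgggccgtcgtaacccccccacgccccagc

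RefSeq promoter entries, which hold the 250 bases before and 50 after a start, matched 22 of the 26 members (Fdps, Fdft1, Sqle and Stard4 had no entry). CCAAT was present on either strand in 18 of these 22 genes (81.8%), against 42% of 12169 tested genes with an entry, and was missing from the windows of Acat2, Scap, Mbtps1 and Mbtps2. A gene was counted where any of its entries held the letters, and the 22 members have 28 entries. Every enzyme with an entry except Acat2 had CCAAT, as did Srebf2, Insig1, Insig2 and Mylip. The Sp1 letters GGGCGG were present in 20 of 22 members (90.9%) and in 63.2% of tested genes, and were missing from Pmvk and Mbtps2. The letters TCACNCCA were found in Hmgcs1, Msmo1 and Srebf2, 3 of 22 members (13.6%), against 4.67% of tested genes, and the longer form TCACNCCAC, which contains them, in Hmgcs1 alone (4.55%, against 1.43%). In the member windows no match of these motifs shared bases with a match of CCAAT or GGGCGG. A match describes the letters in the window and was not tested as a binding site.

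The label check touches every result below. In CPM, a read count relative to the library total after TMM scaling, Tgfa ran from 85.1 to 112 in WT and from 34.4 to 70.1 in KO replicates 2 to 5. It was 132 CPM in the library labelled KO replicate 1. That is 136.6% of the mean of the WT libraries, and KO replicates 2 to 5 had 35.7% to 72.8%. Unscaled, without its TMM factor of 0.78, Tgfa in this library lay inside the WT range. The log2 fold change of Tgfa was -0.61 over all libraries (edgeR adjusted p = 0.899). It was -1.07 without this library (edgeR adjusted p = 0.186) and -0.91 with the weights described below (limma adjusted p = 0.0483). How the allele was made is not stated, so Tgfa RNA cannot decide whether this label is right. Results are given with and without this library. Total counts ranged from 5313552 to 18292303. KO replicate 2 was the shallowest library, with 12.4% of its counts on the repeat-derived gene Gm10800 and counts on 42326 genes, while Malat1, a nuclear RNA, took 6.61% of counts in WT replicate 3, 4.88% in the library labelled KO replicate 1 and 1.34% to 1.84% elsewhere. KO replicates 3 to 5 have names ending in bl and the other 5 libraries names ending in br, and the meaning of these endings is unknown. Keratinocyte markers defined every library, with Krt10, a keratin of the upper layers, at 3767 CPM or more and Krt14, a keratin of the basal layer, at 662 CPM or more. In bulk tissue, fewer cells of a type and less RNA per cell cannot be told apart.

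Per kilobase of exon, Hmgcs1 had the highest level of the 26 members in every library, with a mean ± SD of 275 ± 67.6 CPM per kb over the 3 WT libraries and 217 ± 105 over the 5 KO libraries. Hmgcs1 encodes the cytosolic HMG-CoA synthase, which joins acetyl-CoA and acetoacetyl-CoA. Next in WT on this scale came Cyp51 at 70.2 ± 10.8, Fdft1 at 61.3 ± 6.05, Msmo1 at 58.7 ± 2.61, Srebf2 at 56.9 ± 14.6 and Sqle at 55.1 ± 13.2 CPM per kb. The ranges of mean ± SD of these 5 overlapped. Tm7sf2, a sterol reductase gene, was the lowest member in every library, at 1.02 ± 0.104 CPM per kb in WT and 1.64 ± 0.517 in KO, and Mbtps2 was next to it, at 2.95 ± 1.39 and 3.62 ± 1.16. Insig1 stood at 24.5 ± 1.58 CPM per kb in WT and Insig2 at 15.5 ± 9.61, and Scap at 14.2 ± 1.72, below Srebf2.

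**Figure D1:**
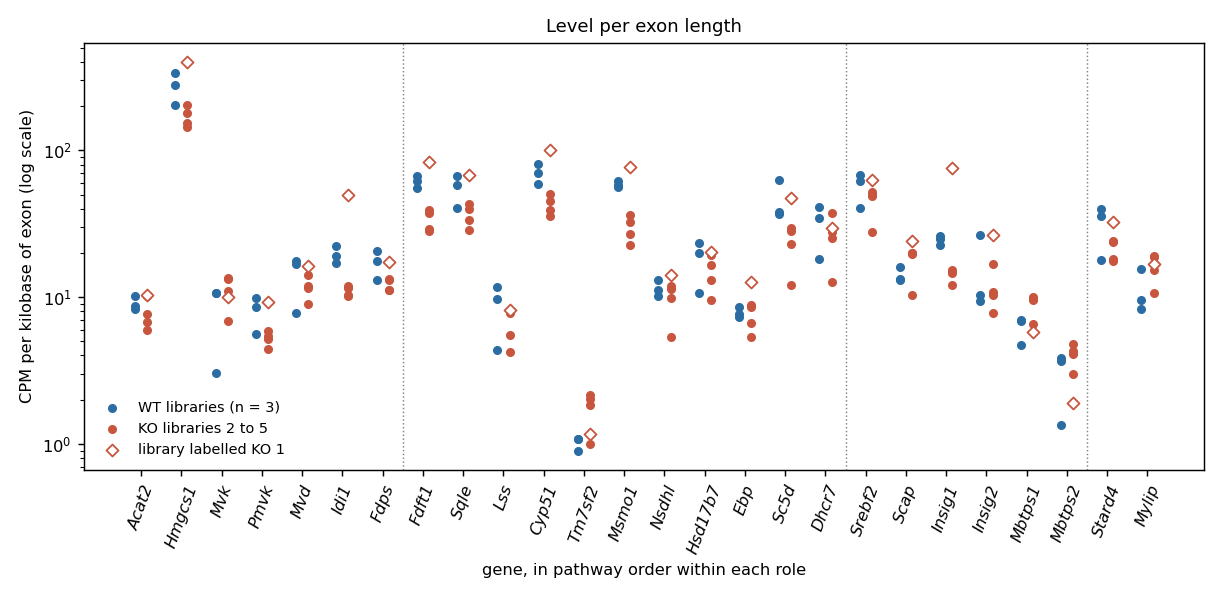
Level of each of the 26 genes in each of the 8 libraries, as CPM per kilobase of exon on a log axis, in pathway order within each role; dotted lines separate the roles. Hmgcs1 lies above and Tm7sf2 below all other members in every library, and the open diamonds of the library labelled KO replicate 1 lie above the 4 other KO libraries for Idi1 and Insig1.

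Over all 8 libraries, no member passed the adjusted threshold for KO against WT in the edgeR quasi-likelihood test. The count was 0 of 26, against 0.0052% of all genes tested (1 of 19239), and at an unadjusted p under 0.05 it was again 0 of 26, against 6.28%. DESeq2 and limma voom also called 0 members, against 0.319% and 0% of genes. Log2 fold changes, KO minus WT, were negative in 18 members and positive in 8, with a median of -0.17, while the median of all genes was 0.16 and 38.1% of genes were negative. Of the 18 enzymes 15 were negative (median -0.29). The values for all genes depended on the fit and libraries. In limma voom 73.1% of members were negative (median -0.25), against 50.4% of genes (median -0.01). Without KO replicate 2, edgeR gave 57.7% of members negative (median -0.08), against 48% of genes (median 0.02). Over all 8 libraries, Benjamini-Hochberg adjusted p in edgeR ran from 0.836 to 0.986 over the members. In 0 of 26 members did the 5 KO values lie wholly above or below the 3 WT values, against 5.15% of genes. Whether each library came from its own animal is not stated, and p-values then cover only the spread among these samples, which may be technical.

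The early mevalonate genes overlapped between genotypes. Hmgcs1 (chromosome 13, 119690462 to 119708086, GRCm38) was 908, 1097 and 662 CPM in WT and 1292, 470.3, 659, 499 and 582 CPM in KO replicates 1 to 5. The library labelled KO replicate 1 was the highest of all 8, and the other KO libraries lay just under the lowest WT library or well below it. The log2 fold change was -0.34 with an SE of 0.37 (95% interval -1.17 to 0.48, adjusted p = 0.931 in edgeR). Acat2, the cytosolic thiolase that makes acetoacetyl-CoA, was 23 ± 2.41 CPM in WT and 20.7 ± 4.91 in KO. Mvk, which phosphorylates mevalonate, was 28.7, 28.6 and 8.13 CPM in WT and 18.4 to 36.5 in KO, with a log2 fold change of 0.43 (SE 0.4) that was 0.03 without the low WT replicate 3. Pmvk, the next kinase, was 13.8 ± 3.83 CPM in WT and 10.3 ± 3.19 in KO, and Mvd, the decarboxylase that makes isopentenyl diphosphate, 26 ± 9.94 and 23.4 ± 5.24.

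Idi1, which encodes the isomerase that turns isopentenyl into dimethylallyl diphosphate, had one of the widest spreads among KO libraries. Idi1 (chromosome 13, 8885501 to 8892451) was 67.4, 78.5 and 60.2 CPM in WT, 173 CPM in the library labelled KO replicate 1, and 35.3, 41.6, 36.4 and 40.7 CPM in KO replicates 2 to 5. Those 4 KO libraries were all below every WT library, and the remaining one was far above the highest. Over all 8 libraries the log2 fold change of Idi1 was -0.07 with an SE of 0.54 (adjusted p = 0.986 in edgeR). Fdps, the farnesyl diphosphate synthase gene, was 73.6, 86.1 and 55.2 CPM in WT and 46.9 to 72.8 in KO, with a log2 fold change of -0.37 (SE 0.23).

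Squalene is made and oxidised by the products of Fdft1 and Sqle. Fdft1 (squalene synthase, chromosome 14, 63145153 to 63177793) was 157, 177 and 192 CPM in WT and 237, 80.9, 112, 82.8 and 107 CPM in KO replicates 1 to 5. Again KO replicates 2 to 5 lay under all WT libraries and the library labelled KO replicate 1 above them. The log2 fold change of Fdft1 was -0.5 with an SE of 0.36 (adjusted p = 0.899 in edgeR). Sqle (squalene epoxidase) was 325, 368 and 225 CPM in WT and 375, 159, 222, 187 and 238 CPM in KO, where KO replicate 5 exceeded WT replicate 3. Its log2 fold change was -0.37 (SE 0.31). Lss, which closes the ring to lanosterol, was 92.6 ± 41.2 CPM in WT and 72.9 ± 19.4 in KO.

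Among the genes that turn lanosterol into cholesterol, Msmo1 was nearly level in WT and lower in KO replicates 2 to 5. It encodes the methyl sterol oxidase and lies on chromosome 8 (64718139 to 64733792). Msmo1 was 346, 358 and 378 CPM in WT, 476 CPM in the library labelled KO replicate 1, and 138, 201, 166 and 224 CPM in KO replicates 2 to 5. All 4 of the latter were below the WT libraries. The log2 fold change of Msmo1 over all libraries was -0.58 with an SE of 0.38 (95% interval -1.43 to 0.27, adjusted p = 0.881 in edgeR). Cyp51, the lanosterol demethylase gene (chromosome 5, 4081145 to 4104746), was 311, 356 and 262 CPM in WT and 442, 174, 199, 158 and 222 CPM in KO, in the same arrangement. Sc5d, a sterol desaturase gene, was 179, 186 and 304 CPM in WT and 231, 59, 136, 112 and 145 CPM in KO. Here the library labelled KO replicate 1 lay inside the WT range, and KO replicate 2 was far under the others. Sc5d had the most negative log2 fold change of the members over all libraries, -0.71 with an SE of 0.39 (adjusted p = 0.836 in edgeR).

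None of the remaining sterol enzymes passed the threshold. Nsdhl, which acts with Msmo1 in removing methyl groups, was 32.6 ± 4.14 CPM in WT and 30 ± 9.34 in KO, and Hsd17b7, the ketoreductase of the same step, 92.1 ± 33.9 and 80.5 ± 22.8. Ebp, the sterol isomerase gene, was 18.1 ± 1.47 CPM in WT and 19.5 ± 6.46 in KO. Dhcr7, which encodes the reductase that yields cholesterol from its last precursor in one branch of the pathway, was 181 ± 68.3 and 154 ± 51.9 CPM. Tm7sf2 was one of 3 enzymes with a positive log2 fold change (0.68, SE 0.38), with 3.13, 3.77 and 3.75 CPM in WT and 4.05, 7.47, 3.5, 6.45 and 7.03 CPM in KO. On this scale only KO replicate 3 lay inside the WT range, and as an unscaled share the library labelled KO replicate 1 did too. Tm7sf2 shares part of its locus with Vps51 on the same strand, so its low values are uncertain. Of the 26 members 10 overlap another annotated gene, Mvd, Fdps, Fdft1, Lss, Cyp51, Tm7sf2, Srebf2, Scap, Insig2 and Mbtps2, and without strand information reads of the partner cannot be told apart from theirs.

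**Figure D2:**
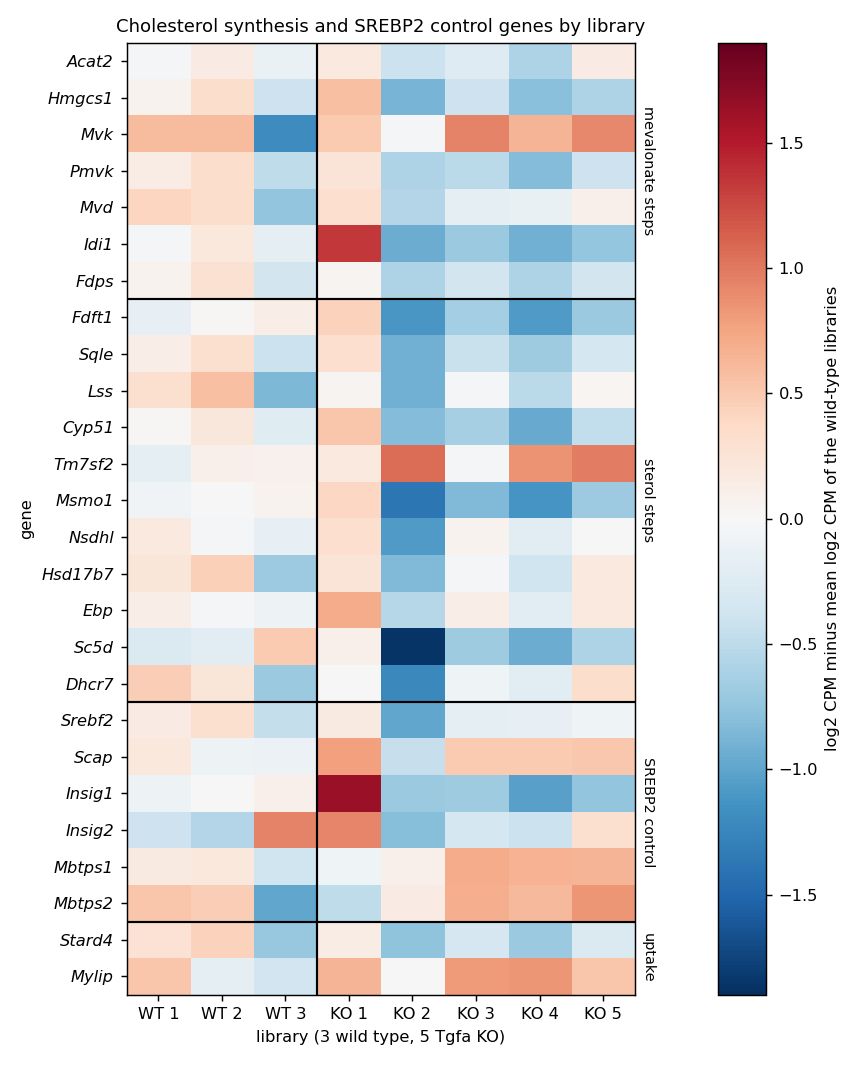
Each cell is the log2 CPM of 1 gene in 1 library minus the mean log2 CPM of the 3 WT libraries, with genes grouped by role and WT libraries left of the vertical line. The column of the library labelled KO replicate 1 is red for most genes and strongest for Insig1 (1.64) and Idi1 (1.34), while KO replicate 2 is blue for most, down to -1.87 for Sc5d.

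The 5 KO libraries spread widely for the enzymes. The library labelled KO replicate 1 was the highest KO library for 15 of 18 enzymes and KO replicate 2 the lowest for 14. Summed over the 18 enzymes, levels were 2971, 3309 and 2447 CPM in WT and 3835, 1427, 2099.9, 1686 and 2174 CPM in KO replicates 1 to 5. KO replicates 2 to 5 were all under the lowest WT library, and the library labelled KO replicate 1 was above the highest. As shares of unscaled counts the enzymes took 0.29%, 0.33% and 0.241% in WT and 0.299%, 0.155%, 0.218%, 0.181% and 0.226% in KO. On that scale the library labelled KO replicate 1 lay inside the WT range, because its TMM factor of 0.78 no longer enters. It was still the highest of the KO libraries. The same factor enters the CPM of each gene in that library. As unscaled shares, its Hmgcs1, Fdft1, Cyp51 and Msmo1 also lay inside the WT range, and its Idi1 and Insig1 stayed above it.

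Marker sums moved in part with the enzyme sums, and their part in these values was not tested. The 7 markers of upper epidermal layers summed to 23709 CPM in the library labelled KO replicate 1, the highest of all, and 6924 CPM in KO replicate 2, the lowest. Unscaled, the sum of the library labelled KO replicate 1 was below that of KO replicate 5, because its TMM factor of 0.78 no longer enters. In the other libraries the scaled sums ran from 11176 to 18727 CPM. Those of KO replicates 3 to 5 (16756, 15056 and 18727) lay within or above the WT range (11176 to 15576). Krt1 and Krt10 made up most of the sums of KO replicates 3 to 5 and lay above every WT library there. Krt1 was 4854, 4292 and 4859 CPM in these libraries, against 398 to 2279 in WT. Krt10 was 9291, 8036 and 8790.1 CPM, against 4103 to 7532. Of the 7 markers 5 had a negative log2 fold change over all libraries. Krtdap was 795, 807 and 999 CPM in KO replicates 3 to 5, against 1089 to 1274 in WT. Sbsn was 577, 546 and 828 CPM, against 855 to 1952. Both lay under the WT libraries there, as the enzyme sums did, while Ivl, Lor and Flg2 overlapped WT through KO replicate 5. The 5 basal markers ranged from 3949.6 to 11088 CPM in WT and from 5356 to 11526 in KO. Summed, the 9 proliferation markers were higher in every KO library (245 to 601 CPM) than in WT (118 to 187), in the library labelled KO replicate 1 as well. Unscaled, its sum lay only just above the highest WT library. Single markers could overlap, as Ccnb1 did, at 5.82 CPM in the library labelled KO replicate 1 and up to 9.59 CPM in WT. Sebaceous gland cells also make sterols and other lipids, and their 9 markers summed to 560.5 to 756 CPM in WT and 482 to 707 in KO. Of these, Awat1, Awat2 and Mc5r were at no more than 2.64 CPM in any library. Far2 was higher, at 9.46 to 12.2 CPM in WT and 9.43 to 43.4 in KO, with the most in KO replicate 5. Scd3 was 2.34 to 5.93 CPM in WT and 0.742 to 15.1 in KO, with the most in KO replicate 2. Scd1, at 542 to 738 CPM in WT and 425 to 645 in KO, made up most of each sum, while 7 of the 8 tested markers had a positive log2 fold change (median 0.8). Adipocyte markers summed to 27.1 CPM in KO replicate 2 and at most 4.22 elsewhere. Fibroblast, endothelial and muscle markers were also highest in KO replicate 2, at 74, 40.3 and 25.4 CPM. Leukocyte markers summed to 332 to 384 CPM in WT and 148 to 379 in KO, and melanocyte markers to at most 20.8 CPM in any library.

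Insig1, itself a target of SREBP2, was the most divided gene of the control group. Insig1 (chromosome 5, 28071363 to 28078662) was 70.5, 76.3 and 80.2 CPM in WT, 235 CPM in the library labelled KO replicate 1, and 46.2, 47.3, 37 and 44.8 CPM in KO replicates 2 to 5. The WT libraries and these 4 KO libraries each lay close together and did not overlap. Over all 8 libraries the log2 fold change of Insig1 was 0.12 with an SE of 0.6 (95% interval -1.23 to 1.46, adjusted p = 0.976 in edgeR). Insig2, the second retention protein, was 36.3, 32.6 and 92.2 CPM in WT and 91.3, 27.3, 38, 35.8 and 58.7 CPM in KO. It was high in WT replicate 3 and the library labelled KO replicate 1, the pair with high Malat1, and lower in the others. Within libraries, the CPM ratio of Insig1 to Scap was 0.586 to 0.823 in WT and 1.3 in the library labelled KO replicate 1. It was 0.598 in KO replicate 2 and 0.251 to 0.319 in KO replicates 3 to 5. The ratio of Insig1 to Insig2 overlapped, at 0.87 to 2.34 in WT and 2.57, 1.69, 1.25, 1.03 and 0.764 in KO replicates 1 to 5.

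In KO replicates 3 to 5 the control genes other than Insig1 were within or above the WT range. Srebf2, which encodes SREBP2, was 309, 341 and 202 CPM in WT and 312, 139, 243, 249 and 262 CPM in KO, with overlapping groups and a log2 fold change of -0.24 (SE 0.3). Scap was 120.2, 98.6 and 97.5 CPM in WT and 181, 77.3, 149, 147 and 149 CPM in KO, where all but KO replicate 2 exceeded WT. Its log2 fold change was 0.42 with an SE of 0.28 (adjusted p = 0.884 in edgeR). Mbtps1, the site-1 protease gene, was 72.6, 73.9 and 49.6 CPM in WT and 61, 68.6, 105, 102 and 100 CPM in KO. Here KO replicates 3 to 5 were above WT and both KO libraries ending in br within it. Mbtps2, the site-2 protease gene, was 38.6, 37.3 and 13.6 CPM in WT and 19.3, 30, 43.5, 41.6 and 48.3 CPM in KO, again highest in KO replicates 3 to 5. The CPM ratio of Hmgcs1 to Srebf2 was 2.94 to 3.28 in WT, 4.15 in the library labelled KO replicate 1, 3.38 in KO replicate 2 and 2 to 2.71 in KO replicates 3 to 5.

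Stard4 and Mylip act after synthesis. Stard4, which carries sterols between membranes and is itself an SREBP2 target, was 201, 224 and 100.1 CPM in WT and 182, 97.6, 133, 101 and 136 CPM in KO, with a log2 fold change of -0.43 (SE 0.31). WT replicate 3 was as low as the lowest KO libraries. Mylip encodes a ubiquitin ligase that marks lipoprotein receptors for degradation and is induced by sterols through LXR. It was 47.7, 29.2 and 25.6 CPM in WT and 51.6, 32.7, 57.6, 58.8 and 47.1 CPM in KO, and had the smallest unadjusted p of the members (log2 fold change 0.54, SE 0.28, edgeR adjusted p = 0.836).

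**Figure D3:**
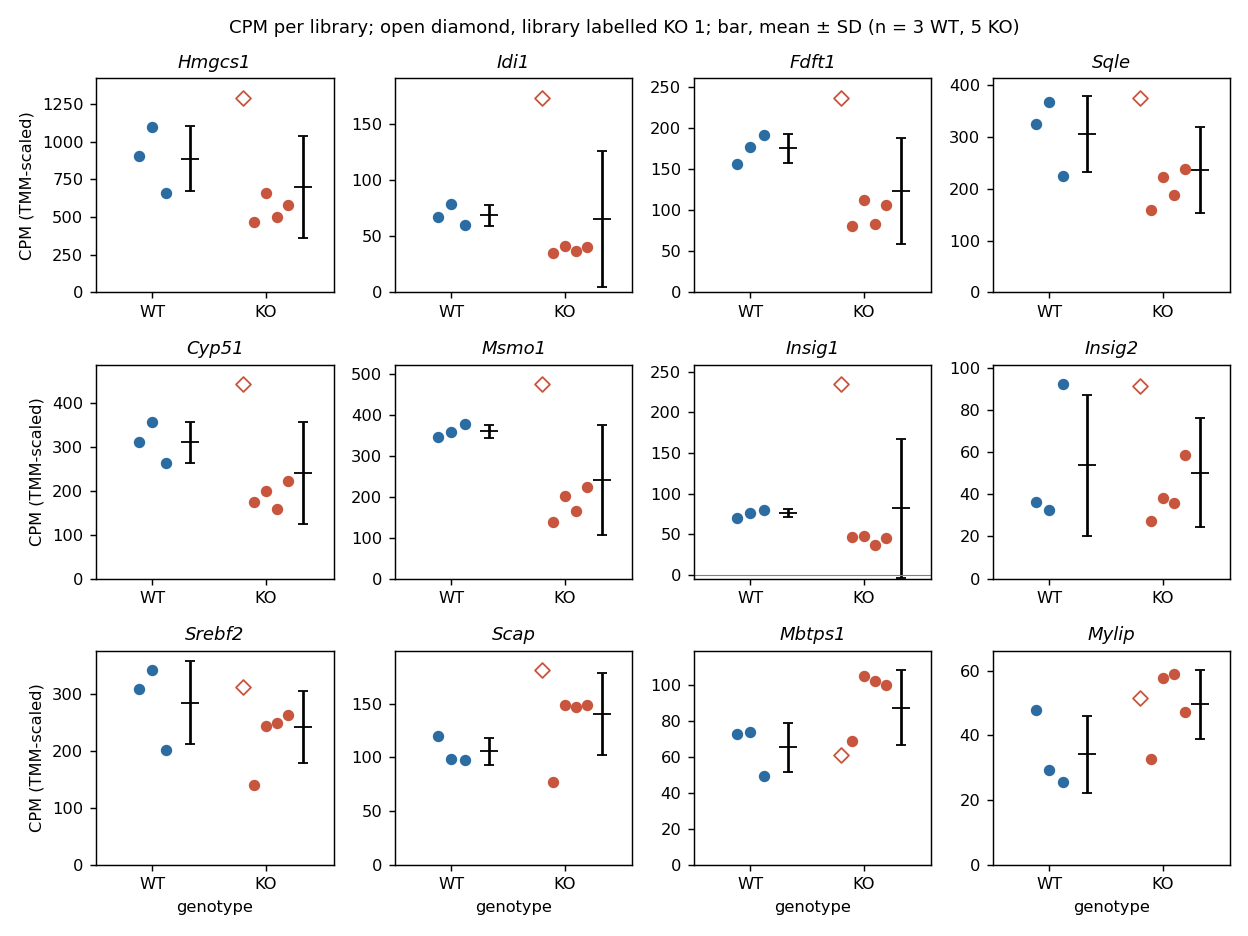
CPM in each library for 12 of the genes, WT in blue and KO in red, with the library labelled KO replicate 1 as an open diamond and black bars for mean ± SD. For Idi1, Fdft1, Cyp51, Msmo1 and Insig1 the diamond lies above all other libraries and the remaining KO libraries below WT. Without TMM scaling, only Idi1 and Insig1 of these genes keep the diamond above WT. Scap and Mbtps1 have KO replicates 3 to 5 above WT.

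Without the library labelled KO replicate 1, 9 of 18 enzyme genes and Insig1 were lower in KO at the unadjusted level, and none passed after adjustment. With 3 WT and 4 KO libraries edgeR called 0 of 26 members (0.00531% of all genes), and at an unadjusted p under 0.05 there were 10 members lower and 0 higher. That is 38.5% of members lower, against 6% of all genes, while 7.73% of genes were higher. The 10 were Hmgcs1, Pmvk, Idi1, Fdps, Fdft1, Sqle, Cyp51, Msmo1, Sc5d and Insig1. The median of the members was -0.39 and that of the enzymes -0.45, while that of all genes was 0.17. In 7 members, Hmgcs1, Idi1, Fdft1, Cyp51, Msmo1, Sc5d and Insig1, all 4 KO values lay under all 3 WT values, 26.9% of members against 6.95% of genes. Msmo1 was 361 ± 16 CPM in WT (n = 3) and 182 ± 37.8 in these KO libraries (n = 4), a log2 fold change of -0.99 with an SE of 0.21 (adjusted p = 0.146 in edgeR). Idi1 was 68.7 ± 9.2 and 38.5 ± 3.12 CPM, a log2 fold change of -0.84 with an SE of 0.18 (adjusted p = 0.146 in edgeR). Insig1 was 75.7 ± 4.9 and 43.8 ± 4.66 CPM, a log2 fold change of -0.79 with an SE of 0.18 (adjusted p = 0.155 in edgeR), and Fdft1 175 ± 17.3 and 95.6 ± 16 CPM, a log2 fold change of -0.88 with an SE of 0.2 (adjusted p = 0.155 in edgeR). Srebf2 was -0.35 (SE 0.28), and Scap, Mbtps1, Mbtps2, Mylip, Mvk and Tm7sf2 kept positive values. With any other single library left out, 0 or 1 members were lower at an unadjusted edgeR p under 0.05, against 0.53% to 4.11% of genes. Without KO replicate 2, the lowest KO library for most enzymes, 0 members were lower and 2 higher, Scap and Mylip. That is 7.69% of members higher, against 5.78% of genes.

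**Figure D4:**
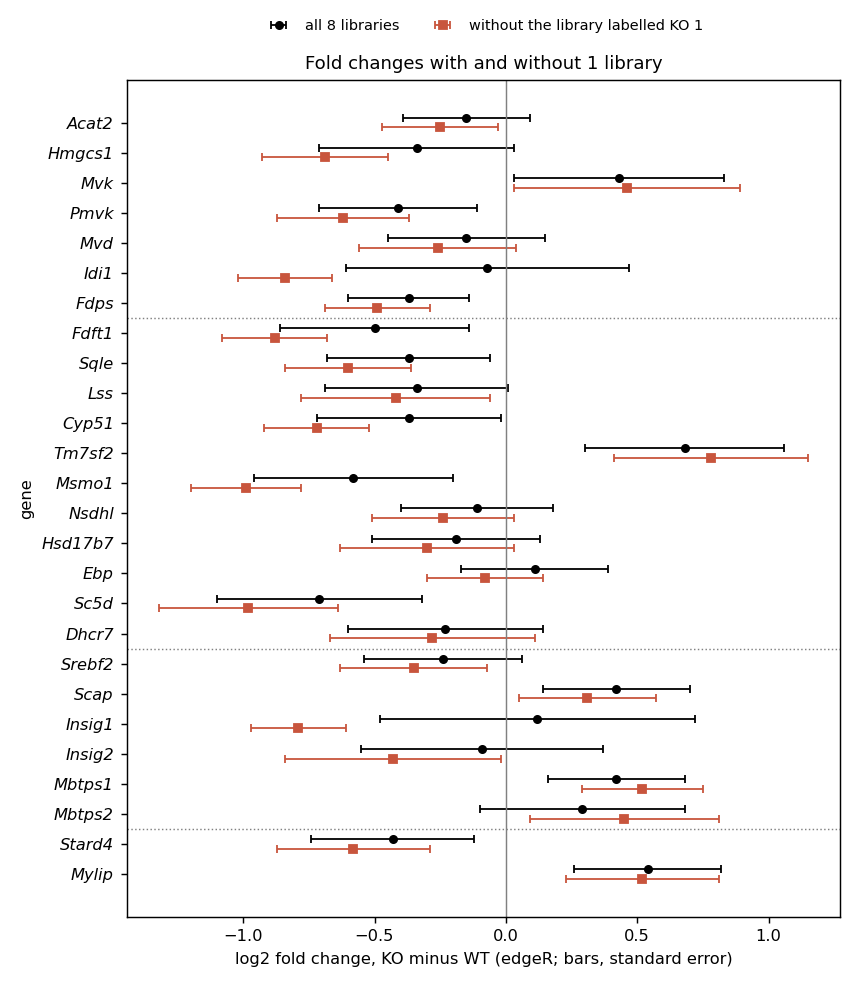
Log2 fold change of each gene, KO minus WT, from edgeR over all 8 libraries (black circles) and without the library labelled KO replicate 1 (red squares), with standard errors as bars. Insig1 moves from 0.12 to -0.79 and Idi1 from -0.07 to -0.84 with a much smaller error, while Scap, Mbtps1 and Mylip stay above 0.

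With libraries weighted by how closely they follow the fitted values (limma voom with sample quality weights), 8 members fell (30.8%, against 3.07% of genes) and 0 rose (against 3.39%). Those that fell were Msmo1 (-0.85, limma adjusted p = 0.026), Cyp51 (-0.76, limma adjusted p = 0.0377), Fdft1 (-0.74, limma adjusted p = 0.0397), Pmvk (-0.77, limma adjusted p = 0.0425), Hmgcs1 (-0.74, limma adjusted p = 0.0428), Stard4 (-0.72, limma adjusted p = 0.0447), Sqle (-0.65, limma adjusted p = 0.0462) and Fdps (-0.57, limma adjusted p = 0.0497). Idi1 (-0.8) and Insig1 (-0.7) did not pass, with limma adjusted p of 0.0586 and 0.119. The weights were 0.28 and 0.37 for KO replicates 1 and 2 and 0.34 for WT replicate 3, and 1.47 to 2.26 for the other libraries, so that the KO libraries with most weight all end in bl. This fit called 0 members without WT replicate 1 (2.73% of genes), WT replicate 2 (0.00858%), KO replicate 3 (1.17%) or KO replicate 4 (0.847%). Without the library labelled KO replicate 1 it called 10 members lower, against 4.68% of genes.

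Name endings divide the KO group and cannot be fully told apart from genotype, because all WT libraries end in br. When the fit was limited to the 3 WT and 2 KO libraries ending in br, edgeR called 0 members (0% of genes), and 0 had an unadjusted p under 0.05, against 2.36% of genes. The pair of KO libraries in that comparison are those with the highest and lowest enzyme sums. With the 3 WT libraries against KO replicates 3 to 5, edgeR called 0 members (0.122% of genes), with 10 lower at an unadjusted p under 0.05 (38.5%, against 10.9% of genes) and 3 higher, Scap, Mbtps1 and Mylip (against 10.7%). With WT replicate 3 and KO replicates 1 and 2 all left out, 12 members fell, against 5.32% of genes, and Mbtps1 rose, against 5.25%, in edgeR with 2 WT and 3 KO libraries. The 12 were Hmgcs1, Pmvk, Idi1, Fdps, Fdft1, Sqle, Cyp51, Msmo1, Sc5d, Srebf2, Insig1 and Stard4, and there genotype and name ending cannot be told apart. Between KO libraries ending in bl and in br, 0 members were called (0% of genes). At an unadjusted p under 0.05 there were 4 members (15.4%, against 17.5% of genes), Idi1 (-1.44, bl minus br) and Insig1 (-1.75) lower and Mbtps1 (0.6) and Mbtps2 (0.79) higher.

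Neighbouring branches of the pathway were read from lists chosen by function. None of 14 genes of isoprenoid use, 20 of sterol transport and efflux and 13 of SREBP1 and fatty acid synthesis was called by edgeR over all 8 libraries, and at an unadjusted p under 0.05 there were 2 of 47 (4.26%, against 6.28% of all genes), Vldlr higher and Arl4c lower. Negative and positive log2 fold changes numbered 7 and 7, 9 and 11, and 10 and 3 in these lists. In the isoprenoid branch, Icmt, which methylates prenylated proteins, was 73.8 ± 6.55 CPM in WT and 66.1 ± 17 in KO, and Nus1, a subunit of the dolichol-making enzyme, 54.3 ± 6.25 and 41.9 ± 10.2. Osbp, which exchanges sterols between membranes, was 105 ± 16.2 and 83.2 ± 17.7 CPM, and Abca1, the cholesterol exporter, 112 ± 37.5 and 148 ± 34.4. Fasn, the fatty acid synthase gene, was 432 ± 163 and 394 ± 161 CPM, and Acly, which supplies cytosolic acetyl-CoA, 378 ± 128 and 288 ± 44.9. In the fit with library weights, 4 of the 47 genes passed (8.51%, against 6.46% of all genes), picked out after their values were seen. Abca1 (0.74, limma adjusted p = 0.0484) and Vldlr, a lipoprotein receptor gene (0.99, limma adjusted p = 0.0388), rose, and Me1, the cytosolic malic enzyme (-0.79, limma adjusted p = 0.0425), and Acsl3, an acyl-CoA synthetase (-0.97, limma adjusted p = 0.0138), fell.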

How the data were processed

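RNA of 3 WT and 5 Tgfa KO libraries was analysed from the whole-number read counts per gene that the authors deposited without normalization, 1 file a library. The tools named in the submitters' processing notes are STAR 2.5.2b, Trimmomatic 0.36, Subread 1.5.2 and featureCounts, with the builds GRCm38 and GRCh38. Per the file headers, counts are over exons of mouse genes, of which 49056 of 49315 matched GENCODE M21 on GRCm38 by identifier. No source used here states strand settings or how reads with several matches were handled, so values of overlapping genes and near-identical copies are uncertain. Groups follow the genotype label, and replicate numbers only name libraries.

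The main test was edgeR 4.0.16 under R 4.3.3 (quasi-likelihood, robust, TMM, filterByExpr), with Benjamini-Hochberg adjusted p under 0.05 over all genes as the threshold. The script was tested on simulated data with larger changes and less spread between libraries than here, so that test does not measure power for these genes. CPM values use TMM factors, and deviations are log2 of CPM plus 0.1. Alternatives used DESeq2 1.42.0, limma 3.58.1 (voom, with and without library weights), other scaling and filters, the name ending as a covariate, and left-out libraries. The weighted fits with a library left out were chosen after seeing the data. Chi-square per gene between libraries of the same group was at least 14.98, so none was counted as a copy of another in its group.

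The members and lists were chosen with earlier results of these data known. The text names all members, Tgfa, and of the other pathway lists described those past the threshold, or the 2 with the highest mean CPM where none passed. Vldlr, Arl4c, Me1 and Acsl3, and the weighted values of Abca1, were chosen after their values were seen. A list of other sterol control genes is not reported here. Total counts of 5313552 to 18292303 a library limit the precision of low genes.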

Additional observations from a re-analysis of the deposited data

Results flagged for a closer look

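In 6 of 26 members the library labelled KO replicate 1 stood apart from the 4 other KO libraries by Dixon's test for an extreme value, which chance passes in about 1 in 20 groups. Members share libraries, so these are not 6 separate events. The share of all tested genes that pass was not computed, so the count cannot be read as particular to the members. Over all genes this library also lay apart from KO replicates 3 to 5. Chi-square per gene was 121.18 to 154.24 between it and them, and 14.98 to 28.09 among them. It was not alone in this. KO replicate 2 had higher values against KO replicates 3 to 5, 196.75 to 226.82. WT replicate 3 had 155.4 and 108.47 against WT replicates 1 and 2, and the value between those was 37.48. The values of the library labelled KO replicate 1 were 1291.9 CPM for Hmgcs1, 173.3 CPM for Idi1, 237 CPM for Fdft1, 442.4 CPM for Cyp51, 476 CPM for Msmo1 and 235.1 CPM for Insig1. Its gap to the nearest KO library, as a share of the KO range, was 0.771, 0.954, 0.802, 0.776, 0.747 and 0.948 in that order, against a critical value of 0.71. These flags use TMM-scaled CPM, where the factor of 0.78 raises the values of this library. On unscaled shares the gaps of Hmgcs1, Cyp51 and Msmo1 fall under the critical value and that of Fdft1 lies close to it. Those of Idi1 and Insig1 stay above it. The same library has Tgfa above the WT mean.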

How the results depend on the processing

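Over all genes the count of calls was 1 in edgeR, 137 in DESeq2, 0 in limma voom, 1243 with library weights, 0 among libraries ending in br, 21 for WT against KO ending in bl, 0 with RLE scaling, 9 without a filter and 0 to 1 with a library left out. Without WT replicate 3 and KO replicates 1 and 2 it was 1883, with 13 members called and 19 of 26 without overlap, against 43.9% of all genes. Members without overlap numbered 0 over all libraries and 0 to 7 with a library left out, the most without the library labelled KO replicate 1, where 16.1% of all genes did not overlap. Library weights called 8 members. With a library left out as well, they called 638, 2 and 1349 genes without WT replicates 1 to 3 and 1900, 1290, 222, 160 and 1416 without KO replicates 1 to 5, with 0, 0, 8, 10, 7, 0, 0 and 6 members among them in that order. Between KO libraries ending in bl and br the count was 0, 2383 without a filter, 1746 in DESeq2 and 0 to 12160 with a library left out (12160 without the library labelled KO replicate 1, 4620 without KO replicate 2). In these last fits the br arm is 1 library, assumed to vary like the bl libraries. The cause was not tested.

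Of the 26 members, 16 kept their sign in all 17 settings. Insig1 was -0.3 in voom, -0.7 with weights, -0.87 against KO ending in bl and -0.8 without the 3 libraries, and -0.79 to 0.31 with a library left out. Among libraries ending in br, Mvk was -0.02, Idi1 0.61, Insig2 0.18, Mbtps1 -0.1 and Mbtps2 -0.39. With the ending as a covariate, Idi1 was 0.61, Insig2 0.15, Mbtps1 -0.01 and Mbtps2 -0.28. Weights gave 0.21 for Insig2. Without the 3 libraries Ebp was -0.04 and Insig2 0.33, and against KO ending in bl Ebp was -0.01. With a library left out, log2 fold changes ran from -0.44 to 0.06 for Mvd, -0.84 to 0.08 for Idi1, -0.34 to 0.04 for Nsdhl, -0.12 to 0.22 for Ebp, -0.51 to 0.05 for Dhcr7, -0.66 to 0.54 for Insig2, -0.06 to 0.53 for Mbtps2, -0.06 to 0.7 for Abca1 and -0.41 to 0.15 for Fasn. No paired analysis was possible because replicate numbers follow the order of deposition and only name libraries. DESeq2 gave no p for Insig1.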
